A study of Mus musculus with 4 samples.

Results

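The constitutive proteasome subunit genes were compared between mouse mammary tumours with and without a block of c-Jun. Members were the genes of probe sets (groups of short array probes for a transcript) whose only symbol began with Psma, Psmb, Psmc or Psmd and a number, without the inducible subunits Psmb8, Psmb9 and Psmb10. These were 76 probe sets of 37 genes, out of 18194 genes named on the array, and each gene was read by its brightest probe set. Of the 37 genes, 16 encode subunits of the core particle and 17 subunits of the regulatory particle, and Psmd5, Psmd9 and Psmd10 encode assembly chaperones of the regulatory particle. Psmc3ip was caught by its letters alone: it encodes a meiotic recombination factor, and it was kept apart from both particles.

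Tumour RNA was measured on 4 Affymetrix mouse whole-genome arrays, each carrying a different tumour. The hosts were nude mice, which lack a thymus and most T cells but keep other host cells and which had received transplanted Eph4 cells, an established line of mouse mammary epithelium. In the 2 Eph_EN_DN tumours the cells carried the fusion oncogene ETV6-NTRK3 and also TAM67, a truncated c-Jun that blocks AP-1 (the dimeric transcription factor that Jun and Fos proteins form). In the 2 Eph_EN tumours the cells carried ETV6-NTRK3 alone, so all 4 tumours share the fusion, the cell line and the host type. The comparison addressed how far tumour growth driven by the fusion depends on AP-1. The age of the mice, the promoters of both constructs and whether the transduced cells were clones are not given in the sources used here. Whole tumours were measured, so host tissue is part of every value, and fewer cells of a type and less RNA per cell cannot be told apart.

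The proteasome is the main protease of the cytosol and nucleus and destroys proteins marked with ubiquitin, short-lived transcription factors such as Jun and Fos among them. Its core particle is a barrel of stacked rings, with alpha subunits in the outer rings and beta subunits in the inner ones, where the beta1, beta2 and beta5 positions carry the active sites. The regulatory particle caps the barrel. Its base holds the ATPases that unfold a substrate and scaffold proteins that bind ubiquitin, and its lid holds the enzyme that removes the ubiquitin chain. Subunit genes are known to be induced together by the transcription factor NRF1 (gene Nfe2l1) when proteasome activity drops.

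None of the proteasome genes passed the test between the groups. A difference is Eph_EN_DN minus Eph_EN in log2(intensity + 16), between 2 tumours and 2 tumours, and limma gave p-values adjusted over all 13331 genes tested. Of the 37 genes, 35 were bright enough to be tested. Among these 35, limma called 0 at an adjusted p under 0.05 and 0 at an unadjusted p under 0.05, beside 0.555% and 9.80% of all genes tested. The count at an unadjusted p under 0.05 was 2 with quantile normalization, 2 with probe sets averaged, 1 without Eph_EN tumour 2 and 4 of 62 with every probe set tested separately. The 35 adjusted p-values lay between 0.557 and 0.994. Over all genes, 18 (0.135%) were higher and 56 (0.420%) lower in Eph_EN_DN tumours, or 7 and 48 with each array centred on its median.

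The 31 core and regulatory subunits tested differed by -0.32 (Psmd2) to 0.40 (Psmc2), which is 1.25-fold lower to 1.32-fold higher in Eph_EN_DN tumours. Their median difference was 0.043, and that of all genes tested was 0.019. The median size of the difference, regardless of sign, was 0.11 for the subunits and 0.21 for all genes tested. The subunits were also brighter, with medians per array of 9.30 to 9.49 on the log2 scale, against 6.76 to 6.80 for all genes tested. Comparisons with all genes tested were not matched for brightness, here or below, and the part of brightness in them was not tested. None of the 31 reached a size of 0.5, against 12.9% of all genes tested, or of 1, against 1.22%. The difference was above 0 in 18 of the 31, against 52.2% of all genes tested. For each of the 35 genes tested, the unadjusted 95% interval of limma lay inside a 2-fold change in either direction, as it did for 78.6% of all genes tested. The interval ends farthest from 0 were -0.76 for Psmd2 and 0.84 for Psmd5. Standard errors were 0.18 to 0.23 for these 35 genes, with a median of 0.21, and the median over all genes tested was 0.23. With 1 array left out, 32 to 35 of the genes tested kept an interval inside a 2-fold change, the lowest count being without Eph_EN_DN tumour 1.

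**Figure D1:**
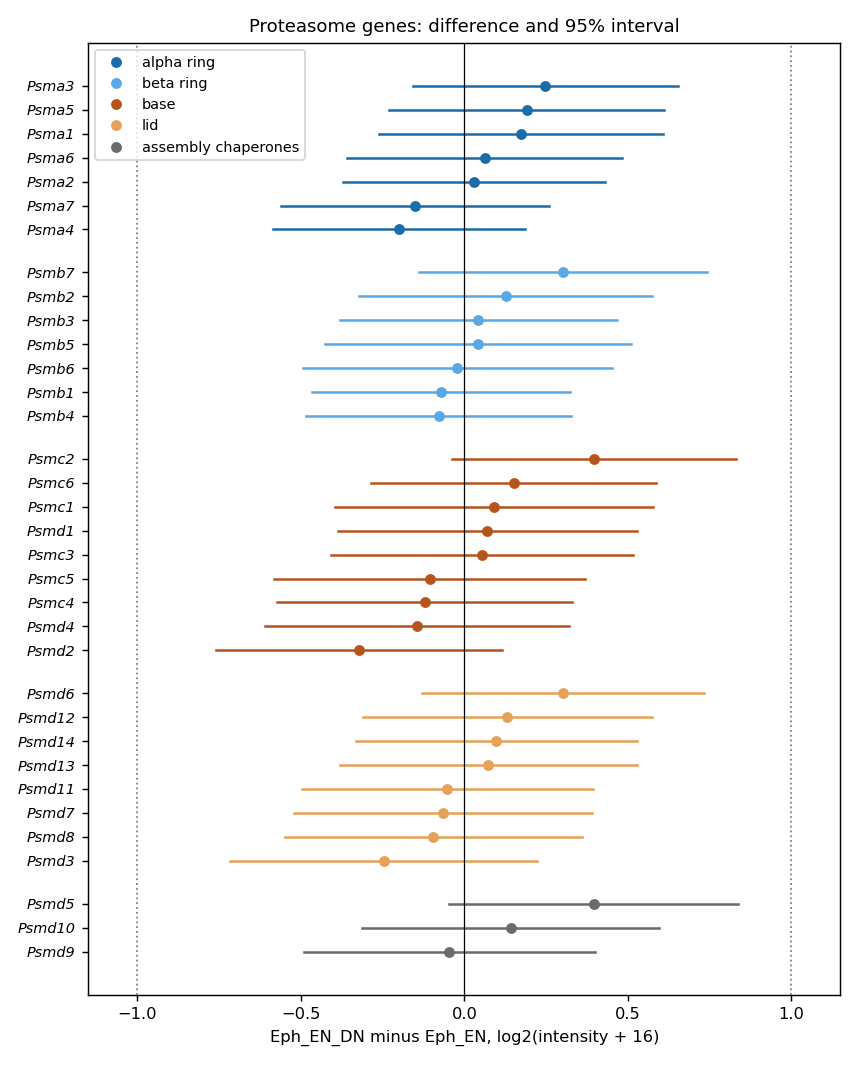
Difference between Eph_EN_DN and Eph_EN tumours (x axis, log2(intensity + 16); points) with limma's unadjusted 95% interval (lines) for the 34 proteasome genes tested, grouped by ring, base, lid and assembly chaperones; dotted lines mark a 2-fold change. Every interval crosses 0 and none reaches a dotted line.

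**Figure D2:**
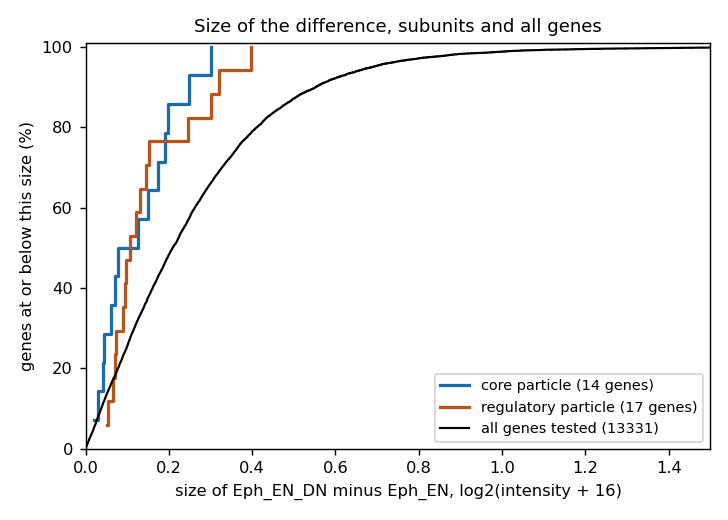
Share of genes (y axis, percent) whose difference between the groups is at or below a given size (x axis, log2(intensity + 16)), for 14 core genes, 17 regulatory genes and all 13331 genes tested; the x axis ends at 1.5. All core genes lie at or below 0.30 and all regulatory genes at or below 0.40.

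Core and regulatory particle stood close together. The median difference was 0.043 over the 14 core genes tested and 0.055 over the 17 regulatory genes, so that the core median minus the regulatory median was -0.012. With 1 array left out, this gap lay between -0.0097 and 0.080, and with quantile normalization it was 0.016. In the core 9 genes had positive and 5 negative differences, and in the regulatory particle 9 and 8. By ring, the medians were 0.062 for the 7 alpha genes and 0.042 for the 7 beta genes. Within the cap they were 0.055 for the 9 base genes and 0.011 for the 8 lid genes. Centring each array on its median turned the signs of both particles, to -0.056 for the core and -0.044 for the regulatory particle, a setting in which the median of all genes tested was -0.080. These medians carry no test, since members of one array are not replicates of a condition.

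The groups did not overlap in 10 of the 31 subunits, 7 with higher and 3 with lower Eph_EN_DN values, beside 40.2% of all genes tested (20.2% higher and 20% lower). This share was 50% of the core (7 of 14) and 17.6% of the regulatory particle (3 of 17). The difference between the groups exceeded the gap between the tumours of each group in 6 of the 31 subunits (19.4%), against 26.7% of all genes tested. The median gap between tumours of a group was 0.16 in Eph_EN_DN and 0.19 in Eph_EN for the subunits, and 0.23 and 0.26 for all genes tested. Eph_EN tumour 1 was the lowest of the 4 tumours in 15 of 31 subunits (48.4%, against 29.2% of all genes tested), 7 of them in the core and 8 in the regulatory particle. Without that tumour, the median over the subunits and assembly chaperones was -0.040 in place of 0.049.

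**Figure D3:**
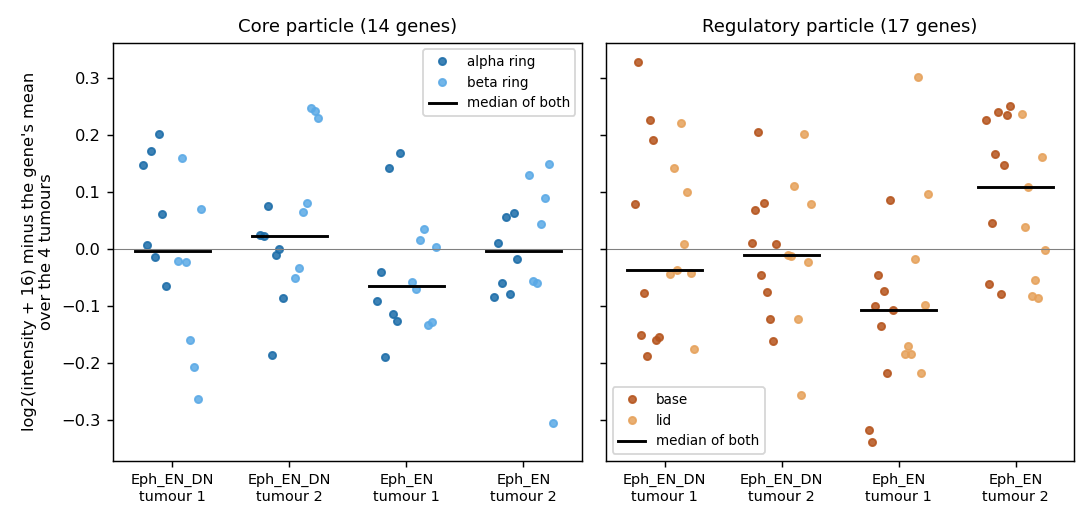
Level of each gene in each tumour relative to the gene's own mean over the 4 tumours (y axis, log2(intensity + 16)), with Eph_EN_DN tumours on the left and Eph_EN tumours on the right of each panel; points are genes and black bars the median over the particle. The lowest bar in both panels is that of Eph_EN tumour 1.

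The 7 alpha genes tested build the outer rings, whose tails gate the entry to the barrel. Psma3, the alpha7 subunit, had the largest positive difference of the ring. It read 1277 and 1192 intensity units in the Eph_EN_DN tumours and 990 and 1085 units in the Eph_EN tumours, and both Eph_EN_DN values were the higher ones. The difference was 0.25 ± 0.19 (SE, adjusted p = 0.720), with an interval of -0.16 to 0.65. Psma4, the alpha3 subunit, whose tail takes part in closing the gate, had the largest negative difference. It read 1740 and 1544 units in Eph_EN_DN tumours and 1941 and 1827 in Eph_EN tumours, without overlap and in the opposite order to Psma3. The difference was -0.20 ± 0.18 (adjusted p = 0.769), and -0.11 without Eph_EN_DN tumour 2.

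By their brightest probe sets the other alpha genes lay between these. Psma5 (alpha5) differed by 0.19 and Psma1 (alpha6) by 0.17, with groups that did not overlap. A second probe set of Psma5 read 892 and 739 units in Eph_EN_DN tumours and 456 and 671 units in Eph_EN tumours, again without overlap, at a difference of 0.54 (adjusted p = 0.458 over all probe sets). With probe sets averaged, Psma5 differed by 0.37, more than Psma3. Psma7, the alpha4 subunit, differed by -0.15, also without overlap. In Psma6 (alpha1, 0.062) and Psma2 (alpha2, 0.030) the groups overlapped, and both were negative with median centring (-0.036 and -0.069). Groups were apart in 5 of the 7 alpha genes, 3 with higher and 2 with lower Eph_EN_DN values, beside the 40.2% of all genes tested that did not overlap. Psma8, the testis form of the alpha4 subunit, was too dim to be tested: it read 21.7 and 25.5 units in Eph_EN_DN tumours and 16.3 and 8.31 in Eph_EN tumours, below the array medians of 35.6 to 40.8 units.

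The 7 beta genes tested form the inner rings. Psmb5, the beta5 subunit with the chymotrypsin-like site, which is the main target of proteasome inhibitor drugs, read 510 and 705 units in Eph_EN_DN tumours and 538 and 630 units in Eph_EN tumours. The 2 Eph_EN_DN tumours were the lowest and the highest of the 4, with both Eph_EN tumours between them. Its difference was 0.042 ± 0.22 (adjusted p = 0.973, interval -0.42 to 0.51). Psmb6, the beta1 subunit with the caspase-like site, showed the same order of tumours at 595 and 851 units in Eph_EN_DN and 655 and 797 units in Eph_EN. Its difference was -0.021 ± 0.22 (adjusted p = 0.986). The gap between the Eph_EN_DN tumours was 0.45 for Psmb5 and 0.51 for Psmb6, larger than either difference between the groups, and leaving out Eph_EN_DN tumour 2 moved them to -0.18 and -0.27.

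Psmb7, the beta2 subunit with the trypsin-like site, did not follow that order. It read 761 and 852 units in Eph_EN_DN tumours and 726 and 583 units in Eph_EN tumours, so the groups did not overlap. Its difference of 0.30 ± 0.21 (adjusted p = 0.689, interval -0.14 to 0.74) was the largest of the core by brightest probe sets with all 4 arrays. It was 0.15 without Eph_EN tumour 2, below the 0.31 of Psma3 in that setting, and 0.46 without Eph_EN tumour 1. With probe sets averaged it stayed at 0.30, below the 0.37 of Psma5. Psmb4, the beta7 subunit, had the largest negative difference of the ring, with 1152 and 1365 units in Eph_EN_DN tumours and 1321 and 1329 units in Eph_EN tumours. Here again Eph_EN_DN tumour 1 was the lowest and Eph_EN_DN tumour 2 the highest, at a difference of -0.079 ± 0.19 (adjusted p = 0.929). The remaining beta genes, which have no active site, were Psmb2 (beta4, 0.13, groups apart), Psmb3 (beta3, 0.043) and Psmb1 (beta6, -0.071). A second probe set of Psmb3 read 625 and 696 units in Eph_EN_DN tumours and 425 and 570 units in Eph_EN tumours. Its groups did not overlap, at a difference of 0.41 (adjusted p = 0.566 over all probe sets). With probe sets averaged, Psmb3 differed by 0.23. Psmb11, the thymus form of the beta5 subunit, was too dim to be tested, at 17.6 and 32.8 units in Eph_EN_DN tumours and 31.5 and 12.1 in Eph_EN tumours.

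Promoter windows were looked up for the letters of an AP-1 site, because TAM67 acts on AP-1, and for those of 2 factors known to act on proteasome genes. RefSeq windows of build GRCm38.p6, from 250 bases before to 50 after the annotated start, were found for 25 of the 31 subunits tested. The AP-1 letters TGANTCA, which read the same on both strands, stood in 1 of the 25 (4%), against 8.97% of the 27025 genes in the table. The letters TGACNNNGC, the core of the element read by NRF1 and NRF2, stood on either strand in 4 of 25 (16%), against 14% of all genes. CCAAT, the box of the factor NF-Y, stood on either strand in 10 of 25 (40%), against 41.1%. A match describes these letters only and shows no bound factor. The subunit with the AP-1 letters was Psmb5, where they lie 42 to 48 bases into the transcript, and the assembly chaperone gene Psmd9 also holds them, 126 to 120 bases before its start.

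The stretches of 250 bases before the start are shown for both of these genes and for Psmb6. Among the 11 core genes tested that had a window, Psmb5 and Psmb6 are those that hold TGACNNNGC. No window was found for the core genes Psmb1, Psmb2 and Psmb7. Capitals mark matches to TGACNNNGC and TGANTCA, and the 3 stretches hold no CCAAT. They lie at chr14:54617996-54618245 on the minus strand for Psmb5, chr11:70525107-70525356 on the plus strand for Psmb6 and chr5:123227940-123228189 on the plus strand for Psmd9.
Psmb5: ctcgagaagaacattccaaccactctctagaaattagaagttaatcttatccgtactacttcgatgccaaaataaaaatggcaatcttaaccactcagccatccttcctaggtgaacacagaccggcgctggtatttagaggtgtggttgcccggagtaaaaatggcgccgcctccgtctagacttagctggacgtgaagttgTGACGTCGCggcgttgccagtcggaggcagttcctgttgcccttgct
Psmb6: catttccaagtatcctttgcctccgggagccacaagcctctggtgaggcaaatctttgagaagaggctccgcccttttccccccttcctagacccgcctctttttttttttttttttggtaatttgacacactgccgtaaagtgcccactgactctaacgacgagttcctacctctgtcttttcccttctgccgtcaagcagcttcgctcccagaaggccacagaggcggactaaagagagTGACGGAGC
Psmd9: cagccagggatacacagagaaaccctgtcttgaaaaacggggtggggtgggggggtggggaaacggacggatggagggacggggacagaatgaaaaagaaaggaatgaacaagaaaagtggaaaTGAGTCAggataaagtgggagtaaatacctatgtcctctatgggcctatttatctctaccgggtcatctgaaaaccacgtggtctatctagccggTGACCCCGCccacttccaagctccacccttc
The NRF1 and NRF2 letters lie 47 to 39 bases before the start in Psmb5, 9 to 1 bases before it in Psmb6 and 31 to 23 bases before it in Psmd9. The differences of these genes were 0.042, -0.021 and -0.046, all small beside their standard errors. The same letters also stand in the windows of the regulatory genes Psmc6 and Psmd12. These differed by 0.15 ± 0.21 and 0.13 ± 0.21.

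The inducible subunits that replace the 3 catalytic ones under interferon are given for comparison. Psmb8, which takes the place of Psmb5, read 219 and 169 units in Eph_EN_DN tumours and 560 and 292 units in Eph_EN tumours, a difference of -1.02 ± 0.27 (adjusted p = 0.142). Psmb9, which takes the place of Psmb6, differed by -0.96 ± 0.27 (adjusted p = 0.173), and Psmb10, which takes the place of Psmb7, by -0.27 ± 0.22 (adjusted p = 0.738). No inducible subunit passed the test. The unadjusted intervals of Psmb8 (-1.58 to -0.45) and Psmb9 (-1.52 to -0.40) lay below 0. Those of Psmb10 (-0.74 to 0.20), Psmb5 (-0.42 to 0.51), Psmb6 (-0.49 to 0.45) and Psmb7 (-0.14 to 0.74) crossed 0. The difference between inducible and constitutive members was not tested.

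**Figure D4:**
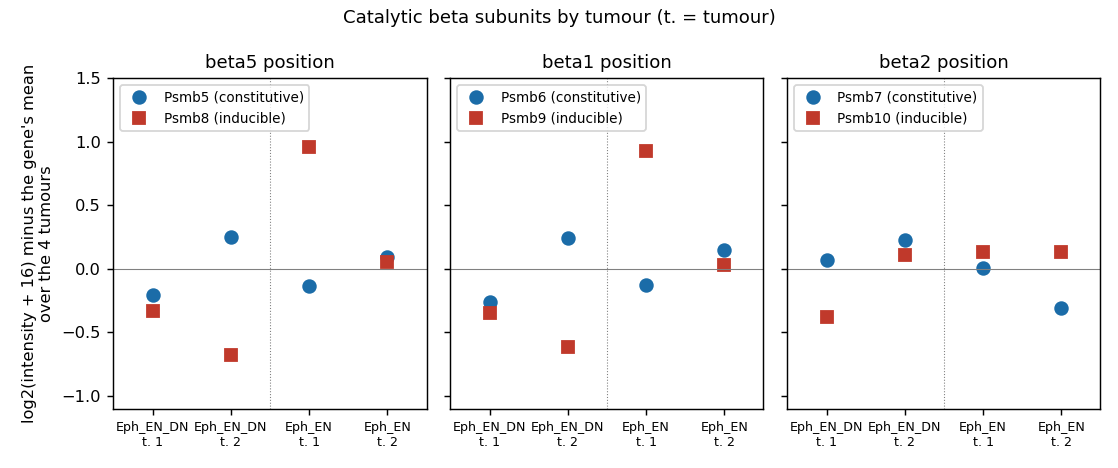
Level of the constitutive catalytic subunits (circles) and their inducible counterparts (squares) in each tumour, relative to each gene's own mean over the 4 tumours (y axis, log2(intensity + 16)), with Eph_EN_DN tumours left of the dotted line and Eph_EN tumours right of it. Psmb8 and Psmb9 are highest in Eph_EN tumour 1, while Psmb5 and Psmb6 are highest in Eph_EN_DN tumour 2 and lowest in Eph_EN_DN tumour 1.

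Among the subunits read by their brightest probe sets, those farthest from 0 in both directions were in the base of the regulatory particle. Psmc2, the Rpt1 ATPase, read 1169 and 974 units in Eph_EN_DN tumours and 731 and 889 units in Eph_EN tumours, so the groups did not overlap. Its difference was 0.40 ± 0.21 (adjusted p = 0.557, interval -0.036 to 0.83). This was the largest among all subunits tested by their brightest probe sets with all 4 arrays. It was 0.26 without Eph_EN tumour 1. With probe sets averaged it was 0.21, and the lid gene Psmd6 then had the largest difference, at 0.43. The brightest probe set of Psmc2 is of a type (suffix _x_at) that may also bind related transcripts. The next brightest probe set of Psmc2 differed by 0.16, with 529 and 611 units in Eph_EN_DN tumours and 477 and 543 units in Eph_EN tumours. Psmd2, the Rpn1 scaffold on which ubiquitin carriers dock, read 469 and 468 units in Eph_EN_DN tumours and 559 and 621 units in Eph_EN tumours. Both Eph_EN_DN tumours lay below both Eph_EN tumours, at a difference of -0.32 ± 0.21 (adjusted p = 0.658, interval -0.76 to 0.11). The dimmer probe set of Psmd2 differed by -0.43.

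The groups overlapped in each of the other 7 base genes. The remaining ATPase genes differed by 0.15 (Psmc6), 0.090 (Psmc1), 0.055 (Psmc3), -0.11 (Psmc5) and -0.12 (Psmc4). The 6 ATPases form 1 ring in equal numbers, and their 4 positive and 2 negative differences had a median of 0.072. Psmd1, the other large scaffold, differed by 0.070, and Psmd4, a ubiquitin receptor, by -0.14. The widest gap within a group among base genes was that of Psmc1, at 139 and 211 units in the 2 Eph_EN tumours.

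In the lid, Psmd6, a helical scaffold subunit, had the largest positive difference. It read 679 and 730 units in Eph_EN_DN tumours and 542 and 596 units in Eph_EN tumours, without overlap, at 0.30 ± 0.20 (adjusted p = 0.680, interval -0.13 to 0.73). The second probe set of Psmd6 differed by 0.56, with 497 and 447 units in Eph_EN_DN tumours and 300 and 329 units in Eph_EN tumours (adjusted p = 0.392 over all 22556 probe sets). Both probe sets therefore had groups apart in the same direction. Psmd3, another scaffold subunit of the lid, had the largest negative difference, at 382 and 315 units in Eph_EN_DN tumours and 471 and 364 units in Eph_EN tumours. Eph_EN_DN tumour 1 lay above Eph_EN tumour 2, so these groups overlapped, and the difference was -0.25 ± 0.22 (adjusted p = 0.765). It was -0.068 without Eph_EN tumour 1, -0.11 without Eph_EN_DN tumour 2, -0.38 without Eph_EN_DN tumour 1 and -0.42 without Eph_EN tumour 2.

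Psmd14, the deubiquitinase of the lid, read 1099 and 863 units in Eph_EN_DN tumours and 930 and 888 units in Eph_EN tumours. The Eph_EN_DN tumours were the highest and the lowest of the 4, and the difference was 0.098 ± 0.20 (adjusted p = 0.917). Psmd12 differed by 0.13, Psmd13 by 0.073, Psmd11 by -0.052, Psmd7, the inactive partner of Psmd14, by -0.065, and Psmd8 by -0.095. Groups overlapped in each of these 6 genes.

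The assembly chaperones help the base to form and leave the finished particle. Psmd5 was read at 416 and 420 units in Eph_EN_DN tumours and 313 and 315 units in Eph_EN tumours. The tumours of each group nearly coincided (gaps of 0.015 and 0.012 on the log2 scale), and the difference was 0.40 ± 0.21 (adjusted p = 0.566, interval -0.046 to 0.84). Its values in every tumour were chosen for display after they were seen. The standard error of limma borrows from genes of like intensity and is wider than these gaps alone would give. Psmd10, known as gankyrin, differed by 0.14 and Psmd9 by -0.046, both with overlapping groups. Psmc3ip, which is no proteasome gene, differed by -0.010.

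Probe sets of the same gene often disagreed in sign. Of the 34 proteasome genes tested, 17 had more than 1 probe set bright enough to be kept, and in 10 of these the probe sets had differences of both signs. Of the 26 other probe sets, 12 had the sign of the brightest one. Among the 14 with a mean above 100 units, 9 did. The widest span was 0.99 in Psmd11, where 1 probe set differed by -0.60, with 226 and 208 units in Eph_EN_DN tumours and 341 and 334 units in Eph_EN tumours. The other end of this span was a dim probe set at 0.39, with a mean of 68.9 units, while the brightest differed by -0.052. In Psmb1 the brightest probe set, with a mean of 1475 units, differed by -0.071. The other 2, much dimmer at means of 163 and 86.2 units, differed by 0.45 and 0.52. None of the 60 probe sets passed over all probe sets (lowest adjusted p = 0.352), beside 72 of all 22556, so this count does not set them apart. A size of at least 0.5 was reached by 4 of the 60, beside 12.9% of all genes tested, read by 1 probe set each.

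**Figure D5:**
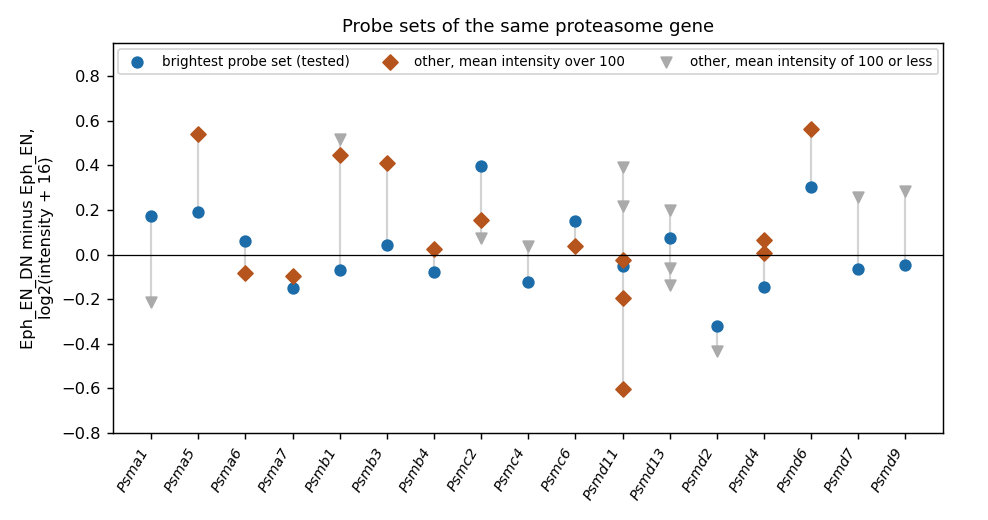
Difference between Eph_EN_DN and Eph_EN tumours (y axis, log2(intensity + 16)) for each probe set kept of the 17 proteasome genes with more than 1; circles are the brightest probe set, diamonds others with a mean above 100 units and triangles dimmer ones. In 10 genes the probe sets lie on both sides of 0.

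Genes that act with the proteasome were read from 7 lists with 28 genes tested, 3 of them inducible subunits. Of these 28, 0 passed the threshold, beside 0.555% of all genes tested, so this count does not set the lists apart from other genes. The 5 core assembly chaperone genes had a median of 0.12. Among them Psmg2, which pairs with Psmg1 to build the alpha ring, read 261 and 237 units in Eph_EN_DN tumours and 117 and 177 units in Eph_EN tumours. These groups did not overlap (0.73 ± 0.23, adjusted p = 0.265, interval 0.24 to 1.21), whereas its partner Psmg1 differed by -0.22. The groups were also apart in Psmg1 and in Psmg3, whose difference of 0.24 was the next largest of the list. Of the 4 activators and inhibitors tested (median -0.073), Psme4, a nuclear activator, differed by 0.44 and Psme1, an interferon-inducible one, by -0.30. The 3 further subunits and deubiquitinases of the cap (median 0.35) were Usp14 (0.46), Uchl5 (0.35) and the small lid subunit Sem1 (0.14). Usp14 read 307 and 319 units in Eph_EN_DN tumours and 146 and 335 units in Eph_EN tumours. Its groups overlapped, with an interval of -0.14 to 1.07.

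Among 4 regulators of proteasome genes (median -0.25), Nfe2l1 itself read 258 and 247 units in Eph_EN_DN tumours and 320 and 277 units in Eph_EN tumours. The groups did not overlap, at a difference of -0.22 ± 0.21 (adjusted p = 0.780). Stat3 differed by -0.42 (adjusted p = 0.519) and Nfe2l2 by -0.28. Of the list of ubiquitin genes and activating enzymes only Uba6, an activating enzyme, was analysed here, at 552 and 336 units in Eph_EN_DN tumours and 230 and 298 units in Eph_EN tumours (0.69 ± 0.25, adjusted p = 0.351). The 8 genes of ubiquitin carriers and of the Vcp unfoldase complex had a median of -0.033, with Ubqln2 at 0.33 and Ufd1 at -0.29.

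On every array all 31 subunits lay above the array median. That median was 38.1 and 40.8 units in Eph_EN_DN tumours and 35.6 and 35.9 in Eph_EN tumours. It covers every probe set, dim ones included, whereas each subunit was read by its brightest probe set. The share of all genes tested that lay above it was not counted. The 3' to 5' ratio of Gapdh, a sign of RNA quality, was 1.17 and 1.11 in Eph_EN_DN tumours against 0.938 and 1.04 in Eph_EN tumours. That of beta-actin was 1.31 and 1.34 in Eph_EN_DN tumours against 1.11 and 1.19 in Eph_EN tumours, and the mean log2(intensity + 16) of the 18S ribosomal RNA probe sets was 6.76 and 7.43 in Eph_EN_DN tumours against 5.43 and 6.40 in Eph_EN tumours. All 3 measures were higher in both Eph_EN_DN tumours. Jun, whose probe set may not read TAM67, was at 154 and 110.0 units in Eph_EN_DN tumours and 132 and 128 in Eph_EN tumours. The epithelial markers, 8 of 8 tested, had 3 positive and 5 negative differences (0 called, median -0.28), and none was at 0 on any array. They summed to 2875 and 3157 units in Eph_EN_DN tumours and 3535 and 3758 in Eph_EN tumours. Krt8 and Krt18 were the brightest genes in these sums. Proliferation genes were positive in 8 of 8 (0 called, median 0.36, sums of 6280 and 5634 units in Eph_EN_DN tumours and 3595 and 5718 in Eph_EN tumours). Of all genes tested, 0.135% were called higher and 0.420% lower. Adipocyte genes had 4 of 8 called higher (median 1.65), with sums of 1615 and 6732 units in Eph_EN_DN tumours and 695 and 461 in Eph_EN tumours. Skeletal muscle genes had 1 of 4 called higher (median 0.22). Interferon response genes had 3 of 8 called lower (median -0.95), with sums of 1812 and 1636 units in Eph_EN_DN tumours and 3937 and 2671 in Eph_EN tumours. Fibroblast (10 tested, median -0.60), endothelial (6, -0.36) and macrophage genes (8, -0.57) had 0 called. The part of these features in the values of the proteasome genes was not tested.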

How the data were processed

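Total RNA of 4 tumours was labelled with biotin and hybridised to 1 array each, per the labels. The authors deposited 1 linear intensity per probe set and array. Their probe summary, background correction and array scaling are not stated in the labels. The number of arrays limits the precision. Separate animals for same-group tumours are not stated either, so the p-values cover only spread among these arrays, which may be technical.

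Probe sets were named through GEO's platform annotation, which can be old, with 34945 of 45101 holding 1 symbol, 932 several and 9160 none, beside 64 controls. Looking up Entrez IDs in a RefSeq table of GRCm38.p6 changed 0 symbols. Controls and the dimmest 40% of probe sets were left out, log2(intensity + 16) was taken, and each gene's brightest probe set over the 4 arrays was tested with limma (version 3.58.1, R 4.3.3; functions lmFit and eBayes, variance trend on intensity, two-sided tests, Benjamini-Hochberg adjustment). The pseudocount of 16 understates changes of dim genes. On simulated data for the same 13331 genes the fit called 84% of genes changed 2-fold, 100% of those changed 4-fold and 17 unchanged genes. Only genes above the median level were given a change. The values were drawn independently for each gene around its mean with limma's fitted variance. Differences between tumours that many genes share were not simulated, so these rates may not hold for the real tumours. Both groups number their tumours 1 and 2, without a stated link between equal numbers. Alternatives were other pseudocounts, filters, scalings, probe set rules, variance models and thresholds, the replicate block and each array left out.

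The members and gene lists were chosen with earlier results of these data known. All members are named. In each ring, base and lid the farthest member in each direction and the catalytic subunits are given in every tumour. From the lists of genes that act with the proteasome, the members with the largest differences are named, together with some smaller ones. Among the smaller ones are Psmg1, the partner of Psmg2, and Nfe2l1, the gene of NRF1. Exact permutation tests of 2 against 2 tumours cannot go below 0.333, so none was used.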

Additional observations from a re-analysis of the deposited data

How the results depend on the processing

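None of the proteasome genes passed under any of the alternatives run, thresholds of 0.10 and 0.01 included. Over all genes the count of calls was 74, and 38 with quantile normalization, 35 with a gene's probe sets averaged, 5 without the intensity trend, 17 at a threshold of 0.01 and 22 (without Eph_EN_DN tumour 2) to 151 (without Eph_EN tumour 1) with 1 array left out. With the tumour number as a replicate block it was 11, with 0 proteasome genes; no label ties equal numbers, whose deviations correlated at -0.065 across all genes and 0.19 across the subunits, so the block is given only as an alternative. The median over the core was -0.056 with median centring, and that over the regulatory particle lay between -0.073 and 0.13 with 1 array left out, below 0 without Eph_EN_DN tumour 2 (-0.069) and without Eph_EN tumour 1 (-0.073), where the core median was -0.014. In 486 of 525 pairs of a member and an alternative the difference kept its sign. Many of these pairs could not have turned. The filters on dim probe sets, separate probe sets, the variance models and the replicate block leave a member's difference as it was. Signs turned with median centring for Psma2 (-0.069), Psma6 (-0.036), Psmb3 (-0.055), Psmb5 (-0.056), Psmc1 (-0.0082), Psmc3 (-0.044), Psmd1 (-0.029), Psmd13 (-0.025) and Psmd14 (-0.00020), with quantile normalization for Psmb1 (0.012), and with probe sets averaged for Psma1 (-0.019), Psma6 (-0.010), Psmb1 (0.30), Psmd7 (0.097) and Psmd9 (0.12). Leaving out 1 array gave ranges that crossed 0 for Psma6 (-0.032 to 0.16), Psmb1 (-0.16 to 0.023), Psmb3 (-0.00052 to 0.087), Psmb4 (-0.20 to 0.042), Psmb5 (-0.18 to 0.27), Psmb6 (-0.27 to 0.23), Psmc1 (-0.18 to 0.36), Psmc3 (-0.12 to 0.23), Psmc3ip (-0.16 to 0.14), Psmc5 (-0.29 to 0.081), Psmd1 (-0.11 to 0.25), Psmd11 (-0.26 to 0.16), Psmd13 (-0.073 to 0.22), Psmd14 (-0.073 to 0.27), Psmd4 (-0.32 to 0.033), Psmd7 (-0.19 to 0.065), Psmd8 (-0.22 to 0.032) and Psmd9 (-0.12 to 0.024). The cause of these shifts was not tested.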
